A study of Mus musculus with 12 samples.

Results

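The 8 genes described here make the surface complex that shows cell-internal peptides to CD8 T cells, load it, or switch its genes on: the class I heavy chains H2-K1, H2-D1 and H2-T23, the light chain B2m, the peptide transporter subunits Tap1 and Tap2, the loading factor Tapbp (tapasin), and the transactivator Nlrc5. They were taken by gene symbol from a list of class I and peptide-loading genes, and all 8 were found among the 55335 gene rows of the count tables. RNA-seq and ribosome footprinting, which sequences the stretches of mRNA that ribosomes cover, had been run on thymocytes of 6-week-old mice kept free of specific pathogens. Each assay had 3 libraries labelled WT and 3 labelled miR-181a/b-1 KO, so that 12 libraries fell into 4 groups of 3. The KO mice lack 1 of the genomic pairs that encode the microRNAs miR-181a and miR-181b. All cells were strained from the thymus and put straight into saline with cycloheximide, a drug that stalls ribosomes, and the libraries of both assays came from 1 kit. The sources used here give no strain, sex or kind of knockout allele, and do not tell which RNA-seq and footprint libraries share a mouse.

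In a class I molecule the heavy chain folds around B2m in the endoplasmic reticulum while the Tap1 and Tap2 transporter pumps peptides in from the cytosol and tapasin holds the empty molecule beside it. H2-K1 and H2-D1 encode the classical chains H-2K and H-2D, and H2-T23 encodes Qa-1, a chain that shows leader peptides to receptors on NK cells. Nlrc5 binds no DNA of its own and is brought to class I promoters by factors on their X and Y boxes. In the thymus, class I is low on double-positive thymocytes, the most numerous stage, and rises as thymocytes mature, so these bulk samples mix cells with different levels.

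The deleted pair encodes 2 microRNAs with the same seed, the bases that pair with targets. Their RefSeq mature sequences (table build GRCm38.p6) are shown because their loss is the only difference between the groups that the labels name. Capitals mark bases 2 to 8.
mmu-miR-181a-5p: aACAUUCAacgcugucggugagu
mmu-miR-181b-5p: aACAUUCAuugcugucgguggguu

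RefSeq promoters (the same build, 300 bases around each start, most of them upstream) were present for H2-K1, H2-D1, B2m, Tap1, Tapbp and H2-T23. They were searched on both strands for TGACG and ATTGG with exactly 20 bases between them, TGACGNNNNNNNNNNNNNNNNNNNNATTGG, the cores of the X2 and Y boxes that follow the X1 box in class I promoters. This pair was present in H2-K1, H2-D1 and B2m, 3 of the 6 promoters, and in 27 of 27025 genes, or 0.0999%. No other spacing or variant of the cores was searched, so absence elsewhere holds for this exact pattern alone. These shares are a description and no test of enrichment. Either core alone is common, TGACG in 23% and ATTGG in 41.1% of the promoters of this length, and TGACG was also in Tap1 and ATTGG in Tap1, Tapbp and H2-T23. The windows are shown because factors on these boxes recruit Nlrc5, with the X2 and Y cores in capitals, each read along its gene's strand, first base 41, 101 and 78 bases upstream of the start.
H2-K1, chr17:34000359-34000388, minus strand: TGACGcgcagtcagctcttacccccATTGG
H2-D1, chr17:35262993-35263022, plus strand: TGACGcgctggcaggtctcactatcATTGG
B2m, chr2:122147609-122147638, plus strand: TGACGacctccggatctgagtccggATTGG

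The windows of H2-K1 and H2-D1 had the same base at 23 of 30 positions, and those of H2-K1 and B2m at 13 of 30. A match of letters is a description and not a measured binding site.

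Between 4479182 and 8180286 reads per RNA-seq library lay in genes, and between 4069968 (KO replicate 3) and 17859770 per footprint library. The deleted gene Mir181a-1 had 133 to 166 CPM (a gene's reads as a scaled part of its library) in the WT footprint libraries and 0.464 to 1.04 in the KO ones, so the labels of the footprint libraries match its loss. In RNA-seq the same row held 0.964 to 3.97 CPM in the libraries labelled WT and 2.34 to 5.11 in those labelled KO, so it does not check the RNA-seq labels, and directions in RNA-seq are given by label. In both assays a library lay on the other side of its group mean from the library with the same number in the other genotype, with correlations across genes of -0.99 to -0.98 in RNA-seq and -0.99 in footprints. The SDs and SEs below therefore may not measure the spread between mice, and an adjusted p from a fit that also holds the replicate number (the block) is given where it ends a call. Double-positive markers summed to 14130 to 16155 CPM per RNA-seq library and mature single-positive markers to 448 to 534, with all 10 and all 8 genes detected. Reads that aligned to several places were set apart before counting, 13.1% to 20.5% in RNA-seq and 17.7% to 18.6% in footprints. These are shares of the deposited counts. In both assays they too lay on opposite sides of their group means in same-numbered libraries. Class I heavy chain genes are close copies of one another, so the levels of H2-K1, H2-D1, H2-T23 and the related chains below rest on the reads that tell them apart and are uncertain to that extent.

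In the fit of genotype alone, H2-D1 and Nlrc5 were called lower and Tap2 higher in KO footprints, though not with the replicate block. H2-D1 and Nlrc5 stood at 0.728 and 0.751 of WT and Tap2 at 1.19 of it. H2-K1, B2m, Tap1, Tapbp and H2-T23 were not called in either assay. A gene is called here at an adjusted p (FDR, edgeR quasi-likelihood test, Benjamini-Hochberg over all genes tested) under 0.05. In footprints 3 of 8 genes were called against 17.6% of all 13509 genes tested, with 1 called higher (9.25% of all) and 2 lower (8.34%). With the replicate block 0 of 8 were called by edgeR (3.02% of all genes), while 3 had an unadjusted p under 0.05 (16.2% of all). In RNA-seq 0 of 8 were called by edgeR against 6.91% of 13652 genes, 2 had an unadjusted p under 0.05 (23.8% of all), and DESeq2 called 1, H2-D1. The median log2 fold change of the 8 was -0.10 in RNA-seq and -0.08 in footprints, against -0.00053 and -0.0090 over all genes tested. In these bulk samples fewer cells of a type and less RNA per cell cannot be told apart.

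**Figure D1:**
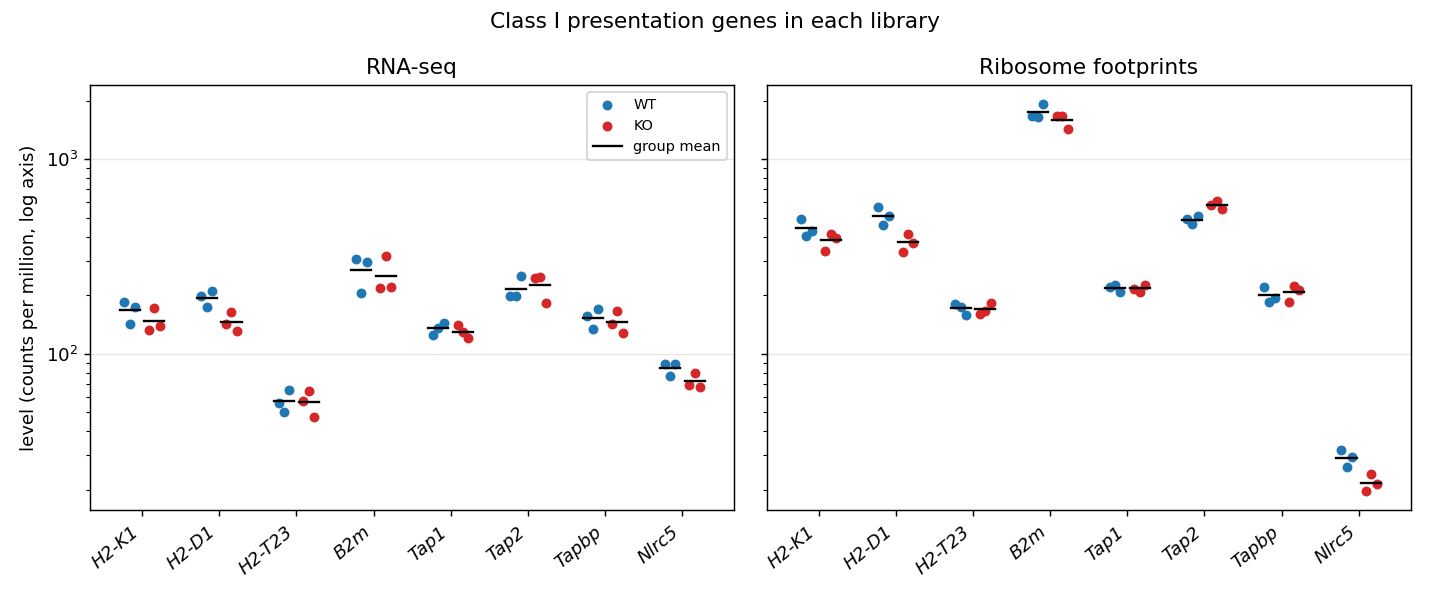
Level of each class I presentation gene in each library, in CPM on a log axis, for RNA-seq (left) and ribosome footprints (right); blue points are WT, red points KO, replicates 1 to 3 from left to right, and black lines group means. In footprints the KO points lie below all WT points for H2-D1 and Nlrc5 and above them for Tap2, and in RNA-seq the groups separate for H2-D1 alone.

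Of the 3 heavy chains of the list, H2-D1 was called, in footprints. The exact permutation test of its ratio to H2-K1, given below, cannot decide whether they differed, since 3 against 3 allows no p under 0.10. H2-D1 (ENSMUSG00000073411.12) had 565, 460.1 and 513 CPM in WT footprint libraries 1 to 3 and 335, 412 and 371 CPM in the KO ones. The highest KO library was below the lowest WT library, which 38.1% of genes show in one direction or the other, 19.6% with KO lower. The log2 fold change was -0.46 (SE 0.10, edgeR FDR 0.0263), from 23501 reads in WT and 11467 in KO. With the replicate block the FDR was 0.0612, and it was 0.0601 without WT replicate 1, 0.0631 without WT replicate 3, 0.0678 without KO replicate 1 and 0.0732 without KO replicate 3. In RNA-seq H2-D1 had 198, 173 and 210.2 CPM in the libraries labelled WT and 142, 163 and 131 in those labelled KO. Here too the groups did not overlap, as in 30.9% of genes tested. The RNA log2 fold change was -0.42 (SE 0.11), close in size to that of footprints, with an edgeR FDR of 0.0692. It was past the threshold under DESeq2 (adjusted p 0.0190), with no filter on low counts (edgeR FDR 0.0376) and with all 12 libraries in 1 fit (edgeR FDR 0.0284), and not with the block (edgeR FDR 0.331) or with any library left out. The authors' deposited table lists H2-D1 as lower in RNA-seq, with a log2 fold change of -0.38 and an adjusted p of 0.0162. Their table for footprints has no row for H2-D1.

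H2-K1 (ENSMUSG00000061232.16) had 491, 404 and 425 CPM in WT footprints and 338, 414 and 394 CPM in KO. KO replicate 2 lay above WT replicate 2, and the log2 fold change of -0.21 (SE 0.10) was not called (edgeR FDR 0.214). Its RNA was 185, 143 and 174 CPM in the libraries labelled WT and 132, 171 and 139 in those labelled KO, for a log2 fold change of -0.19 with an SE of 0.13 (edgeR FDR 0.448). The estimate was negative in both assays, and each group held a library inside the range of the other.

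H2-T23 (ENSMUSG00000067212.8), the Qa-1 chain, had 179.9, 175 and 158 CPM in WT footprints and 161, 166 and 182 in KO, with group means of 171 ± 11.5 and 169.6 ± 11.2 CPM (SD, n = 3). Its log2 fold changes were -0.02 (SE 0.07, edgeR FDR 0.886) in footprints and -0.03 (SE 0.14, edgeR FDR 0.930) in RNA-seq, where the means were 56.8 ± 7.54 and 56.2 ± 8.55 CPM (SD, n = 3). Both differences were smaller than the spread within a group.

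The reads of H2-D1 were set against those of H2-K1 within each library, a ratio that no scaling of libraries changes. This ratio and 3 others were chosen after the values of the 8 genes had been seen. In footprints H2-D1 had 1.15, 1.14 and 1.21 reads per H2-K1 read in WT and 0.992, 0.995 and 0.942 in KO. All WT libraries were above all KO libraries, by a mean log2 difference of -0.25, and the exact permutation test (two-sided) gave p = 0.10, the smallest that 3 against 3 allows (adjusted 0.267 over 8 ratios, 4 in each assay). In RNA-seq the ratio was 1.07, 1.21 and 1.21 in the libraries labelled WT and 1.07, 0.954 and 0.939 in those labelled KO, where KO replicate 1 just exceeded WT replicate 1 (exact permutation p = 0.20, adjusted 0.320).

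B2m (ENSMUSG00000060802.8), the light chain that every class I heavy chain pairs with, had 1661, 1653 and 1913 CPM in WT footprints and 1666, 1669.7 and 1428 CPM in KO. The groups overlapped, and the log2 fold change was -0.13 (SE 0.09, edgeR FDR 0.334). B2m RNA was 307, 204 and 297 CPM in the libraries labelled WT and 217, 318 and 219.9 in those labelled KO, the widest RNA spread within a group among the 8 genes, and the estimate was -0.10 on the log2 scale (SE 0.21, edgeR FDR 0.809). In the same RNA-seq libraries 16.5%, 13.1% and 18.7% of reads (WT) and 16.8%, 20.5% and 14.4% (KO) aligned to several places. The lowest share fell in the WT library with the least B2m RNA and the highest in the KO library with the most. These shares carry the same mirrored deviations as the gene counts, so the match is not independent of those deviations. The part of multiply aligned reads in the B2m result was not tested.

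Of the transporter subunits, Tap2 was called in footprints and Tap1 was not. The exact permutation test of their ratio, given below, cannot decide whether they differed, since 3 against 3 allows no p under 0.10. Tap2 (ENSMUSG00000024339.12) had 492, 466 and 509.8 CPM in WT footprints and 581, 610.2 and 556 CPM in KO, with every KO library above every WT library, as in 18.5% of genes. Its log2 fold change was 0.25 (SE 0.05, edgeR FDR 0.0205). With the block the FDR was 0.188, and with all 12 libraries in 1 fit it was 0.160. It was 0.0571 without WT replicate 1, 0.0648 without WT replicate 2, 0.0585 without KO replicate 1 and 0.0690 without KO replicate 2. The authors' deposited table gives 0.24 with an adjusted p of 0.00206. Tap2 RNA was 197, 198 and 252 CPM in the libraries labelled WT and 245, 248 and 181.1 in those labelled KO. These groups overlapped, and the estimate was 0.06 on the log2 scale (SE 0.15, edgeR FDR 0.864).

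Tap1 (ENSMUSG00000037321.17), the partner subunit, had 220.0, 227 and 208.1 CPM in WT footprints and 215, 208.1 and 226 CPM in KO. Its log2 fold change was -0.02 (SE 0.05, edgeR FDR 0.845) in footprints and -0.06 (SE 0.08, edgeR FDR 0.735) in RNA-seq, where the means were 135 ± 9.69 and 129.95 ± 10.1 CPM (SD, n = 3). In footprints Tap2 had 2.24, 2.06 and 2.45 reads per Tap1 read in WT and 2.7, 2.93 and 2.46 in KO. The groups did not overlap, though WT replicate 3 and KO replicate 3 nearly met. The exact permutation p was 0.10 (adjusted 0.267), the smallest that 3 against 3 allows. In RNA-seq the ratio was 1.57, 1.46 and 1.74 against 1.75, 1.91 and 1.51, and the groups overlapped (exact permutation p = 0.40, adjusted 0.533).

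Tapbp (ENSMUSG00000024308.15), the tapasin gene, had 221, 185 and 194 CPM in WT footprints and 184, 223 and 213 in KO. The log2 fold change was 0.04 (SE 0.09, edgeR FDR 0.789). Its RNA had means of 153 ± 17.8 and 145 ± 19.3 CPM (SD, n = 3), an estimate of -0.09 on the log2 scale (SE 0.12, edgeR FDR 0.719), and the groups overlapped in both assays.

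**Figure D2:**
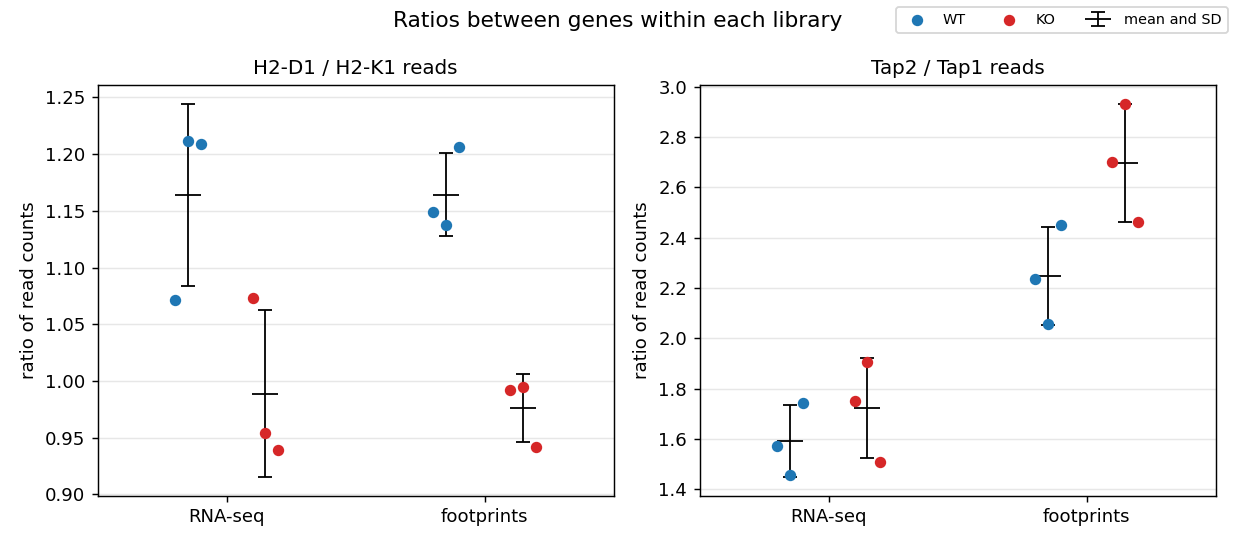
Reads of H2-D1 per read of H2-K1 (left) and of Tap2 per read of Tap1 (right) within each library, WT in blue and KO in red, with the mean and SD of each group; the vertical axes do not start at 0. In footprints H2-D1 per H2-K1 is 1.14 to 1.21 in WT and 0.942 to 0.995 in KO, while the RNA-seq groups overlap in both panels.

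Nlrc5 (ENSMUSG00000074151.13), the transactivator, had 31.8, 26.2 and 29.6 CPM in WT footprints and 19.7, 24.1 and 21.4 CPM in KO, with no overlap. The log2 fold change was -0.41 (SE 0.11, edgeR FDR 0.0434), from 1336 reads in WT and 670 in KO, the fewest of the 8 genes. The FDR was 0.173 with the block. It was 0.101 without WT replicate 1, 0.0938 without WT replicate 3, 0.129 without KO replicate 1, 0.05001 without KO replicate 2 and 0.102 without KO replicate 3, each on the uncalled side, and 0.0394 without WT replicate 2. The authors' deposited table lists Nlrc5 as lower in footprints, with -0.35 and an adjusted p of 0.0498. Nlrc5 RNA was 88.2, 76.4 and 88.8 CPM in the libraries labelled WT and 68.9, 80.0 and 67.6 in those labelled KO, where KO replicate 2 exceeded WT replicate 2. The RNA log2 fold change of -0.23 (SE 0.09) was not called (edgeR FDR 0.195).

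**Figure D3:**
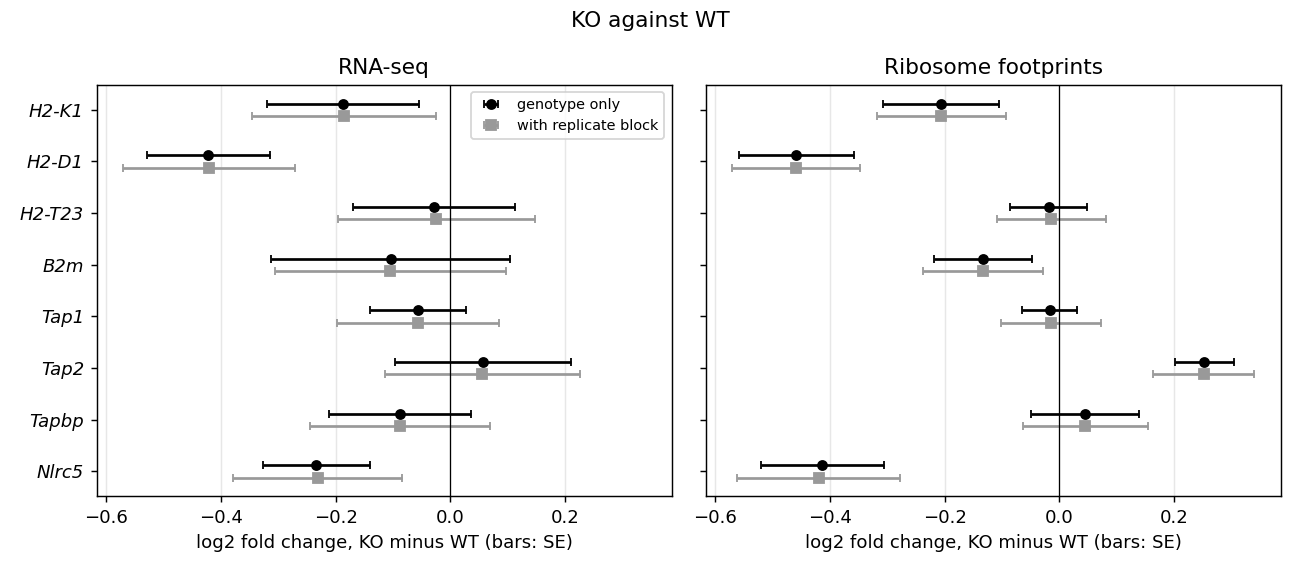
Log2 fold change of KO against WT with its standard error for each class I presentation gene, in RNA-seq (left) and footprints (right), from the fit of genotype alone (black circles) and from the blocked fit (grey squares). The estimates of H2-D1 and Nlrc5 lie at -0.42 and -0.23 in RNA-seq and at -0.46 and -0.41 in footprints, that of Tap2 at 0.06 and 0.25, and the block widens most bars while it leaves the estimates in place.

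Over the 12 libraries, with each assay centred on its own mean, the log2 CPM of Nlrc5 correlated at r = 0.97 with that of H2-D1 and at 0.88 with that of H2-K1, and H2-K1 with H2-D1 at 0.85. Nlrc5 correlated at 0.58 with B2m, 0.48 with Tapbp, 0.33 with H2-T23 and 0.07 with Tap1. Tap2 correlated at -0.16 with H2-D1 and at -0.21 with Nlrc5, and Tap1 at -0.03 with H2-K1. With the mean of the other members, r ran from 0.15 (Tap2) and 0.23 (Tap1) to 0.83 (H2-K1), so the 8 did not share 1 profile. The share of all gene pairs with such r values was not counted. These are descriptions of 12 points that share genotype, replicate numbers and the mirrored deviations given above. Among 8055 genes whose mean log2 CPM reached 3 in each assay, those whose profile was most like the mean profile of the 8 were Txndc15 (r = 0.98), Ung (r = 0.98) and Disp1 (r = 0.97).

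Translation was compared by asking, over the 12 libraries together, whether genotype changed footprints more than it changed RNA. None of the 8 genes was called by edgeR, against 0.211% of 11854 genes, 0 had an unadjusted p under 0.05 (14% of all genes), and DESeq2 called 0. The largest estimates were 0.20 (SE 0.17, edgeR FDR 0.641) for Tap2 and -0.18 (SE 0.15, edgeR FDR 0.630) for Nlrc5, and 0.13 for Tapbp (edgeR FDR 0.761). H2-D1 had -0.04 (SE 0.15) and H2-K1 -0.02 (SE 0.17). If equal numbers mark 1 mouse in both assays, the Nlrc5 estimate was -0.21 (SE 0.08), with an unadjusted p of 0.0279 from edgeR's test across all genes and an FDR of 0.270. So Tap2, called in footprints and not in RNA, was not shown to differ between the assays.

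Footprints relative to RNA within WT showed a wide range among the 8 genes. Ribosomes cover the coding part of an mRNA while RNA reads can fall anywhere in it, so a gene's value also depends on how much of its mRNA is coding, and gene lengths were not used here. B2m stood highest at a log2 value of 2.65 (SE 0.14), above 99.1% of the 11474 genes tested. H2-T23 followed at 1.54, H2-D1 and H2-K1 both at 1.35, Tap2 at 1.13, Tap1 at 0.64 and Tapbp at 0.34, at percentiles 92.5, 90.1, 90.0, 86.3, 75.5 and 67.2. H2-D1 and H2-K1 differed by far less than their SEs of 0.10. Nlrc5 went the other way, at -1.58 (SE 0.10), below the median gene at -0.25 and at percentile 16.01. All 8 were called (edgeR FDR between 2.13e-10 and 0.00510), 7 higher and 1 lower, where 84.2% of genes were called, 34.8% higher and 49.5% lower. The KO libraries gave values between 2.68 for B2m and -1.70 for Nlrc5. All 8 genes were called there too, with 82.5% of 10917 genes. In WT the 8 genes had a median of 1.24. The 14 loading and processing genes described below had a median of 1.43, with 13 called higher and 0 lower. The other class I and class I-like heavy chains had a median of -0.26, with 2 of 12 called higher and 5 lower.

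**Figure D4:**
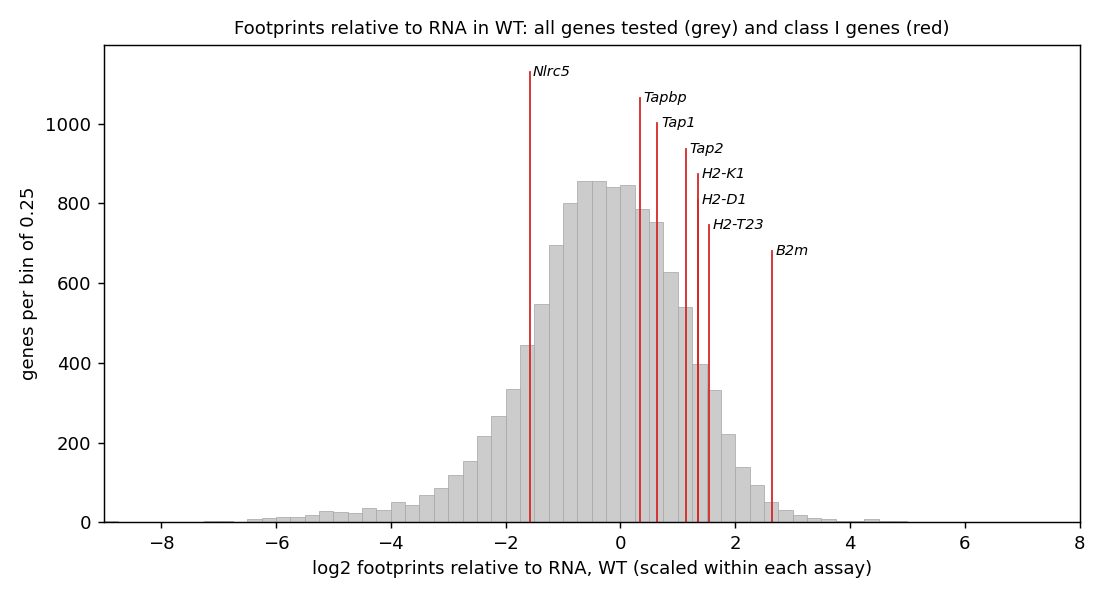
Log2 footprints relative to RNA in the WT libraries, scaled within each assay: grey bars count all 11474 genes tested in bins of 0.25, and red lines mark the 8 class I presentation genes (line height carries no value). B2m lies in the right tail at 2.65, H2-K1, H2-D1 and H2-T23 between 1.35 and 1.54, and Nlrc5 left of the median at -1.58.

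Around these genes, 14 further genes of peptide generation and loading were counted. In footprints 2 were called higher and 3 lower, with a median log2 fold change of -0.05, and in RNA-seq 1 higher and 0 lower, with the same median, beside the shares of 17.6% and 6.91% over all genes. The immunoproteasome subunits Psmb10 and Psmb8, which cut proteins into class I peptides, rose in footprints by 0.28 (85.3 ± 4.68 to 104 ± 5.62 CPM, SD, n = 3, edgeR FDR 0.0236) and 0.27 (409 ± 29.3 to 493 ± 35.1 CPM, SD, n = 3, edgeR FDR 0.0485) on the log2 scale. Calr (calreticulin), a chaperone of the loading complex, had 999.9 ± 17.2 CPM in WT and 844 ± 16.9 in KO footprints (SD, n = 3), lower by the test (-0.24 on the log2 scale, edgeR FDR 0.00635). Npepps, a cytosolic peptidase, rose in RNA-seq by 0.25 (edgeR FDR 0.0318). With the block the FDRs of these 4 calls were 0.163, 0.198, 0.172 and 0.590, and those of the 2 other genes called lower in footprints, Psme2 and Thop1, were 0.374 and 0.393, so that no call of the list was left. The chaperones Canx and Pdia3, whose CPM summed over the 4 groups were the highest of the list (Calr was above both in WT footprints), had footprint log2 fold changes of -0.10 and -0.07 (edgeR FDR 0.167 and 0.262).

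Of 17 other class I and class I-like heavy chains, 13 were tested in RNA-seq and 14 in footprints, the rest having too few reads. In RNA-seq 1 of 13 was called and in footprints 2 of 14, beside 6.91% and 17.6% of all genes. H2-Q6 was higher in KO footprints (5.98 ± 0.968 against 8.86 ± 1.61 CPM, SD, n = 3; 0.65 on the log2 scale, edgeR FDR 0.0358) and H2-T24 lower (45.5 ± 1.48 to 38.5 ± 1.23 CPM, SD, n = 3; -0.24, edgeR FDR 0.0193). Cd1d2, of the lipid-presenting CD1 family, was higher in RNA-seq (4.17 ± 0.446 to 6.28 ± 0.525 CPM, SD, n = 3; 0.59, edgeR FDR 0.0481). With the block their FDRs were 0.205, 0.288 and 0.560. The highest CPM summed over the 4 groups were those of Mr1, which presents vitamin metabolites to MAIT cells, and H2-Q4 (below H2-Q2 in RNA-seq), with footprint log2 fold changes of 0.01 and -0.08 (edgeR FDR 0.966 and 0.2496). The list's median was 0.07 in RNA-seq and -0.03 in footprints.

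Among 22 regulators of class I genes, 2 were called higher and 0 lower in RNA-seq, and 4 higher and 1 lower in footprints, with medians of 0.02 and 0.09. These 2 and 5 of 22 stand beside 6.91% of all genes in RNA-seq (3.48% called higher) and 17.6% in footprints, and with the block 1 call was left, that of Ifngr1 in footprints. The largest footprint change of the list was that of Ifngr1, the ligand-binding chain of the interferon-gamma receptor. It had 718, 726 and 722 CPM in WT footprints and 1147, 1133 and 1134 CPM in KO. No WT library came near a KO library, and the difference of 0.66 on the log2 scale (SE 0.03, edgeR FDR 0.000185) was still called with the block (edgeR FDR 0.00240). In RNA-seq it went from 259.5 ± 6.27 to 390.3 ± 9.27 CPM (SD, n = 3; 0.59, edgeR FDR 0.00312, with the block 0.0646). Rfx5, which binds the X box and is part of the complex that recruits Nlrc5, was higher in RNA-seq (44.3 ± 1.398 to 58.1 ± 1.83 CPM, SD, n = 3; 0.39, edgeR FDR 0.0166), and in footprints its log2 fold change was 0.17 (edgeR FDR 0.114). In footprints Nfkb1, a subunit of the factor NF-κB, rose by 0.25 and Stat2, of the interferon signal, fell by 0.20 (edgeR FDR 0.0290 and 0.0224). With the block the FDRs of Rfx5 in RNA-seq and of Nfkb1 and Stat2 in footprints were 0.360, 0.204 and 0.292. Jak1, which with Ifngr1 had the highest CPM summed over the 4 groups, had a footprint log2 fold change of 0.08 (edgeR FDR 0.258).

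Interferon-stimulated genes, many of which respond to the same signals as class I genes, were 16 in the list and 15 were tested. In footprints 0 were called higher and 5 lower, with a median log2 fold change of -0.24, and in RNA-seq 0 higher and 1 lower, with a median of -0.34. Over all genes 8.34% were called lower in footprints and 3.43% in RNA-seq. With the block 1 of the 6 calls was left, that of Bst2 in footprints, beside 3.02% of all genes called in footprints and 0.806% in RNA-seq. Bst2 (tetherin) had 113, 96.3 and 111 CPM in WT footprints and 71.4, 83.7 and 72.4 in KO, without overlap (log2 fold change -0.48, edgeR FDR 0.0154, with the block 0.0438). Isg15, a ubiquitin-like protein, had 69.7 ± 7.82 CPM in WT and 48.1 ± 5.64 in KO footprints (SD, n = 3) and was called lower (-0.52, edgeR FDR 0.0274, with the block 0.0573). Ifit3 fell by 0.80 on the log2 scale in footprints (edgeR FDR 0.0410, with the block 0.215), at 4.19 and 2.13 CPM, and Irf7 by 0.64 in RNA-seq and 0.24 in footprints (edgeR FDR 0.0311 and 0.0399, with the block 0.255 and 0.416). Igtp and Trim30a, with the highest CPM summed over the 4 groups, had footprint log2 fold changes of 0.08 and -0.13 (edgeR FDR 0.273 and 0.295).

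**Figure D5:**
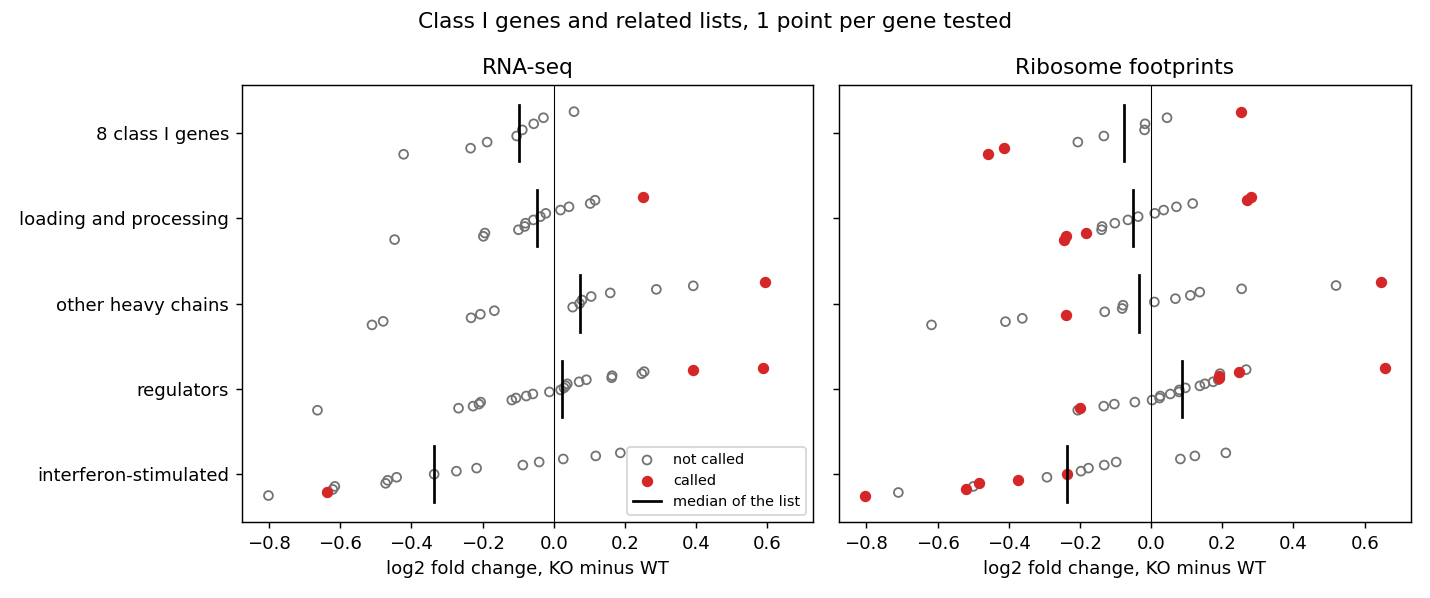
Log2 fold change of KO against WT for the class I presentation genes and the 4 related lists, in RNA-seq (left) and footprints (right), 1 point per gene tested, filled red where the edgeR FDR is under 0.05 without the block, with the list's median as a black line. Called genes lie on both sides of 0 in footprints for every list except the interferon-stimulated genes, whose 5 called genes are all lower.

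The summed levels of the cell type markers are given beside these values for every list. The 10 double-positive markers summed to 14607 to 16155 CPM in WT-labelled and 14130 to 15274 in KO-labelled RNA-seq libraries, and to 22662 to 23475 and 21849 to 22611 CPM in footprints, where the groups did not overlap. The 5 double-negative markers summed higher in KO in both assays, without overlap. Their sums were 175 to 197 against 215 to 235 CPM in RNA-seq and 248 to 258 against 273 to 285 CPM in footprints. In each assay 3 of the 5 estimates were positive and 2 negative. In RNA-seq 1 gene was called higher, and in footprints 1 higher and 1 lower. With the block 1 higher call was left in each assay. The 8 markers of mature single-positive thymocytes, which carry more class I than double-positive cells, summed to 505 to 534 CPM in WT-labelled and 448 to 464 in KO-labelled RNA-seq libraries, and to 1192 to 1248 and 1142 to 1201 CPM in footprints. In RNA-seq 4 of the 8 were called lower (3.43% of all genes), and in footprints 2 lower (8.34%) and 1 higher (9.25%). With the block 1 of these 7 calls was left, that of Ms4a4b in footprints (edgeR FDR 0.00648), and the FDRs of the others lay between 0.0562 and 0.409. The 6 markers of NK, NKT and innate-like cells summed to 62.3 to 68.8 CPM in WT and 35.8 to 40.4 in KO footprints, and to 43.1 to 60.5 and 19.0 to 29.8 CPM in RNA-seq. The 9 macrophage and dendritic cell markers summed to 1530 to 1870 CPM in WT and 1193 to 1474 in KO footprints, and to 269 to 389 and 202 to 319 in RNA-seq. The 6 B cell markers summed to 237 to 271 and 287 to 330 CPM in RNA-seq and to 292 to 366 and 345 to 441 in footprints. The 6 thymic epithelial markers summed to 76.8 to 84.2 CPM in WT and 61.0 to 72.9 in KO footprints, and to 22.7 to 25.4 and 17.8 to 20.1 CPM in RNA-seq. The 5 stromal and endothelial markers summed to 204 to 211 CPM in WT-labelled and 236 to 247 in KO-labelled RNA-seq libraries, and to 203 to 241 and 238 to 286 CPM in footprints. The 5 erythroid markers summed to 76.0 to 90.8 and 46.6 to 58.4 CPM in RNA-seq and to 40.7 to 75.5 and 34.7 to 73.9 CPM in footprints. In RNA-seq the sums did not overlap for the mature, NK, B cell, epithelial, stromal and erythroid lists. In footprints they did not for the NK, macrophage and epithelial lists. Of single genes tested, 30.9% in RNA-seq and 38.1% in footprints also did not overlap. Of the 6 B cell markers, 3 RNA-seq estimates were positive and 3 negative, with 0 called. In footprints 4 were positive and 2 negative, with 1 called higher, also with the block. No gene of these lists was at 0 in any group. In RNA-seq 3 of 3 NK markers tested were called lower, 2 of 4 stromal higher, and 1 each of the epithelial and erythroid lists lower. Footprint calls were 5 of 6 NK and 2 of 9 macrophage markers lower, 2 of 5 stromal higher, 1 epithelial and 1 erythroid lower. Double-positive calls were 1 higher in RNA-seq, and 1 higher and 1 lower in footprints. With the block 0 of these were left in RNA-seq, and 1 NK and 1 double-positive marker in footprints. The part of these cell types in the changes of H2-D1, Nlrc5 and Tap2 was not tested.

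The 27 genes whose promoters hold the X2 and Y pair were described as a list, which includes H2-K1, H2-D1 and B2m. These members count in the numbers and medians below, each with a negative estimate in both assays. In footprints their estimates were -0.21, -0.46 and -0.13, so the list is no comparison separate from them. Of these 27, 25 symbols were in the count tables and 20 were tested in each assay. In footprints 8 estimates were positive and 12 negative, with a median of -0.08, and 2 genes were called higher and 2 lower, 4 of 20 beside 17.6% of all genes. The lower ones were H2-D1 and Glyr1 (log2 fold change -0.15, edgeR FDR 0.0419), and the higher ones Hnrnpf (0.28, edgeR FDR 0.00658) and Per1 (0.28, edgeR FDR 0.0107). With the block the FDRs of Glyr1, Hnrnpf and Per1 were 0.418, 0.159 and 0.199. In RNA-seq 10 were positive and 10 negative, with a median of -0.01. H2-M3, a class I chain that presents formylated peptides and also holds the pair, had a footprint log2 fold change of 0.11 (SE 0.10, edgeR FDR 0.502).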

How the data were processed

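The authors deposited a table of read counts by Ensembl gene for each assay, which the labels call adjusted; the sources used here do not say what was adjusted. Bowtie2 2.5.1, STAR 2.7.10a, HTSeq 2.0.3, DESeq2 1.40.2 and FastQC are named in the submitters' processing notes, with no role. For build, annotation and strand the answer is not given in the sources used here. Per the file headers, 5 rows hold reads outside genes and were left out of totals, and 12 per-library columns of the authors' comparison tables were not used. Symbols matched 54587 IDs with version and 567 without, H2-D1 among the latter.

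Here edgeR 4.0.16 (R 4.3.3) was run on the deposited counts: TMM within each assay, filterByExpr (minimum count 10), quasi-likelihood tests, FDR threshold 0.05. CPM are reads relative to TMM-scaled totals. SE is the log2 fold change divided by the square root of F. Alternatives were RLE factors, DESeq2 1.42.0, no filter, the replicate block, 1 fit of 12 libraries, KO libraries for the footprint to RNA value, and leaving out each library. The fits were tested on simulated data in which libraries varied independently. The mirrored deviations were not simulated, so that test does not cover them. The members and lists were chosen with earlier results of these data known. All 8 members are named; of other lists, up to 4 called genes with the largest change and the 2 most abundant.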

Additional observations from a re-analysis of the deposited data

How the results depend on the processing

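Same-numbered WT and KO libraries deviated in opposite directions (r between -0.99 and -0.98 in both assays, and between 0.21 and 0.69 for other pairs). The numbers are therefore linked in the deposited counts. The labels do not say that they pair mice, so the main fit leaves them out and the blocked fit holds them. With the replicate block, 110 genes were called in RNA-seq against 943 without it, 408 against 2376 in footprints, and 2 against 25 in translation (17 by mouse). The other counts that moved by over 1.5 times were DESeq2 (532 in RNA-seq, 1258 in footprints, 54 in translation) and 1 fit of 12 libraries (1561 in RNA-seq). Leaving out 1 library gave 215 to 323 calls in RNA-seq, 1035 to 1554 in footprints, 6 to 24 in translation and 9292 to 9603 for footprints against RNA in WT; the cause of these shifts was not tested.

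For the 8 genes over their 4 comparisons, 350 of 400 alternative values kept direction and side of the threshold, 17 lost a call and 3 gained one, all given above. Signs turned in 30, each with 1 library left out and none of them called. Left-out log2 fold changes in RNA-seq ran from -0.021 to 0.19 for Tap2 and -0.13 to 0.083 for H2-T23. In footprints the ranges were -0.053 to 0.0094 for Tap1, -0.022 to 0.13 for Tapbp and -0.074 to 0.025 for H2-T23. For translation they were -0.10 to 0.095 for H2-K1, -0.12 to 0.051 for H2-D1, -0.13 to 0.17 for B2m, -0.023 to 0.091 for Tap1 and -0.11 to 0.11 for H2-T23. The sign of the footprint change of H2-D1, Nlrc5 and Tap2 was kept under every alternative run. Leaving out a library could hardly turn it, since their groups did not overlap, and the other alternatives refit the same libraries. The uncalled H2-K1 and B2m also kept their footprint sign throughout. Depth limits Nlrc5 most, with 87 footprint reads in KO replicate 3.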
